A study of Mus musculus with 8 samples.

Results

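Long intergenic non-coding RNAs (lincRNAs) are transcripts made from stretches of the genome between protein-coding genes that carry no recognised protein. Some of them act in the nucleus, where they hold proteins at a locus, build nuclear bodies or take part in imprinting, and many others have no known role. In the pancreatic islet, whose β cells secrete insulin in response to glucose, many lincRNAs are made in a cell type-restricted way, and their levels per transcript are usually low. The array used here carried 4460 probes for such transcripts, out of 56605 probes that were not controls. Each was a single strand of 60 bases with no gene symbol, annotated by a region of the mouse genome (build mm9) and a strand. A few also carried the name of a known transcript. The 4460 probes covered 3240 different regions on chromosomes 1 to 19 and X. Those analysed, 2333 in 1869 regions, had a signal well above background on 4 or more of the 8 arrays. No array value other than this detection flag was used to choose them.

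RNA of isolated mouse islets was measured on 8 one-colour arrays, 4 of βUCP2Tg mice and 4 of wild-type (WT) mice. βUCP2Tg mice carried a Ucp2 cDNA under a rat insulin promoter, so that the transgene was driven in β cells, on a C57BL/6J background, while the WT mice were littermates without the transgene. Ucp2 encodes a carrier of the inner mitochondrial membrane. The mice were male and 8 to 12 weeks old, and islets of both genotypes were kept for 8 h in medium with 200 mg/dL glucose before RNA extraction. Whether each array held islets of 1 mouse or of several was not settled by the sources used here, so n refers to arrays. In whole islets, fewer cells of a type and less RNA per cell cannot be told apart. Levels are given as normalized log2 signal, that is the log2 signal of a probe minus the 75th percentile of its array, so that a value below 0 lies under that percentile. Differences are βUCP2Tg minus WT on this log2 scale, and a probe was called when its fold change was over 1.5 and its adjusted p in limma, over 35363 probes tested, was under 0.05.

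The labels were first examined against the targeted gene and islet markers. The Ucp2 probe A_51_P297105 read 8.25, 8.05, 7.87 and 7.52 in βUCP2Tg islets, against a mean of 1.67 in WT islets, while a second Ucp2 probe, A_52_P90265, differed by only 0.46 (adjusted p = 0.103 in limma) and was not called. The β-cell marker Ins2 lay between 9.53 and 9.89 on all 8 arrays. Of the 14 acinar genes tested (enzymes of the exocrine pancreas) 0 were called by limma, and 0 had an unadjusted p under 0.05, but their summed level ran from 4.47 to 8.58 in βUCP2Tg and from 5.07 to 9.34 in WT islets. All 14 differences were below 0, with a median of -1.73, and the duct marker Krt19 differed by -1.61 without overlap (adjusted p = 0.0735 in limma). The summed level of 9 macrophage genes did not overlap between genotypes, from 3.77 to 4.05 in βUCP2Tg and from 4.10 to 4.54 in WT islets. Of these genes Cd14, a receptor for bacterial lipopolysaccharide, was called, with a difference of -2.08 (adjusted p = 0.0490 in limma). The methods' t-test with adjustment did not call it. C1qa, a complement subunit, differed by 0.68 without overlap (adjusted p = 0.0851 in limma). Whether acinar, duct or macrophage cells had a part in any lincRNA result was not tested. All 8 arrays sat on 1 slide, in rows that each held 1 genotype, so position on the slide and genotype cannot be told apart. Over probes on all 8 arrays, the median absolute difference from the mean of the other 3 arrays of a genotype was highest for WT replicate 1 (0.256, against 0.181 to 0.206 for the other WT arrays) and βUCP2Tg replicate 4 (0.191, against 0.101 to 0.135), and counts without them are given below. WT replicate 4 had the lowest summed acinar level and the fewest lincRNA probes above background of the WT arrays, and WT replicates 1 and 3 each failed 2 of the scanner software's 10 quality metrics.

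The sequences of the 6 called probes are shown first, because they define exactly what was measured where the annotation offers only a region. With them stand the opposite-strand probe of the region with the highest rise, and a probe that reads the complement of a called one. In the last 2 lines, capitals mark the 58 bases in which the 2 probes are exact reverse complements of each other.
A_30_P01023752 (chr10:120116843-120182671, forward): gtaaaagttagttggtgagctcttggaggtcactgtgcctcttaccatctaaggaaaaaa
A_30_P01026800 (chr10:120116843-120182671, reverse): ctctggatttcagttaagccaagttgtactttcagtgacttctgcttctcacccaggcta
A_30_P01030697 (chr19:4210704-4211111, reverse): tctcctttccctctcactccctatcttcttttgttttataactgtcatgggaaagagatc
A_30_P01018791 (chr6:112552041-112560067, reverse): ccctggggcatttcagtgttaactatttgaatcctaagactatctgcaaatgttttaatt
A_30_P01025044 (chr19:19005109-19008657, reverse): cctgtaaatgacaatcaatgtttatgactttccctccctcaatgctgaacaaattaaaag
A_30_P01029264 (chr13:94193230-94193710, forward): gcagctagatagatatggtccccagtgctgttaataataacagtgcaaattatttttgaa
A_30_P01031837 (chr7:13533925-13544525, reverse): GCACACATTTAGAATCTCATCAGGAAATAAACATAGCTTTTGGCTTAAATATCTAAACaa
A_30_P01018981 (chr7:13533925-13544525, forward): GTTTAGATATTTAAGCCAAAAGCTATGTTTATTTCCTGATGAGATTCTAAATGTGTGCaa

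Of the lincRNA probes, 52.3% were measured, against 63.3% of the 52145 other probes. Detection was mostly all or nothing, since 1696 lincRNA probes were well above background on no array and 1917 on all 8 arrays. Just inside the limit of 4 arrays stood 91 probes, and just outside it, on 3 arrays, stood 94. The number of lincRNA probes well above background ran from 2223 to 2339 per βUCP2Tg array and from 2092 to 2488 per WT array, so that the ranges of the genotypes overlapped. Forward-strand probes were measured in 50.8% and reverse-strand probes in 53.8% of cases. By chromosome, the share ran from 43.9% of probes on chromosome 3 to 62.9% on chromosome 14.

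**Figure D1:**
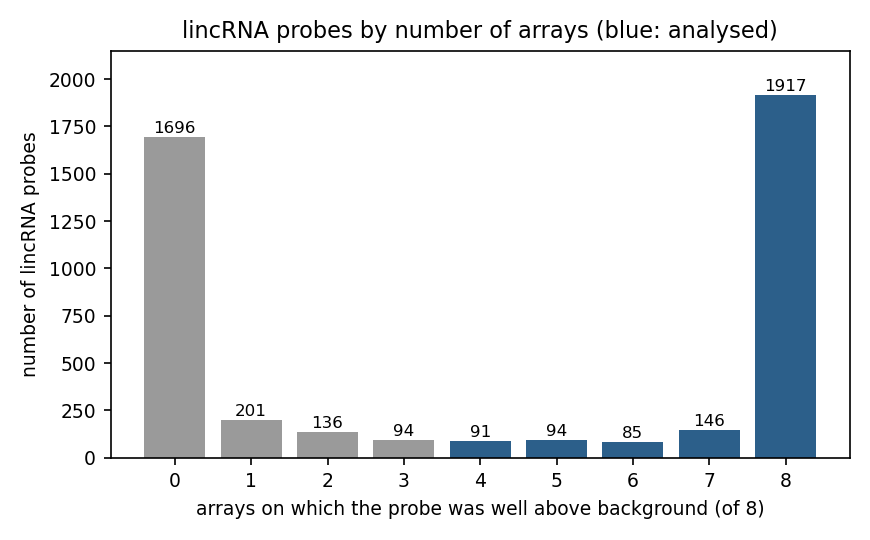
Number of lincRNA probes (y axis, bars) by the number of arrays, of 8, on which each was well above background (x axis); blue bars are the 2333 probes analysed. The 2 high bars are the 1696 probes on no array and the 1917 probes on all 8.

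The median region length was 9406 bases for probes on no array and 11751 bases for probes on all 8 arrays, and the lower quartiles were 800 and 3330 bases. The mean GC content of the 60 bases was 43.3% ± 6.79 (SD) for the former and 46.9% ± 8.77 for the latter. The letters AATAAA, the usual polyadenylation signal, were present on the probe strand in 4.54% of the analysed lincRNA probes and in 10.3% of the other probes of the array, whether or not those were measured. A run of 6 A at the 3′ end of the probe was found in 2.06% of the analysed lincRNA probes and 1.00% of the others.

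Only 6 of the 2333 lincRNA probes were called between the genotypes, 2 higher and 4 lower in βUCP2Tg islets. Over the whole array, calls made up 0.209% (higher) and 0.189% (lower) of the probes tested, and the shares of the lincRNA probes were 0.0857% and 0.171%. Their median difference was -0.02, against -0.01 over all probes tested, and 84.1% of them lay within 0.5 of 0. Without WT replicate 1, 71 lincRNA probes were called higher and 78 lower by the same limma fit, which were 3.14% and 3.45% of them, beside 5.42% and 5.51% of all probes tested. Without βUCP2Tg replicate 4 the counts were 16 and 49 (0.695% and 2.13%, beside 1.07% and 2.95% of all). With both arrays left out they were 93 and 144 of 2200 (4.23% and 6.55%, beside 7.19% and 9.04% of all). The counts of calls thus changed with the arrays that entered, for lincRNA probes as for the whole array.

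The highest rise was that of A_30_P01023752, on the forward strand of a region of 65829 bases on chromosome 10. Its normalized log2 signal was -1.66, -2.02, -1.87 and -2.40 in βUCP2Tg islets and -6.02, -6.27, -7.46 and -7.06 in WT islets. It was well above background on every βUCP2Tg array and on no WT array, so the WT values are only a bound and the probe passed the detection limit solely through βUCP2Tg islets. Against that bound, the rise in βUCP2Tg islets was at least 9.91-fold (adjusted p = 0.00113 in limma, from WT values below background). This size depends on the background correction, since under normexp the fitted difference was 1.25 on the log2 scale (adjusted p = 0.00192 in limma). The reverse-strand probe of the same region, A_30_P01026800, was well above background on 1 array, a WT array, and on no βUCP2Tg array.

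The second probe called higher, A_30_P01030697, reads the reverse strand of a region of 408 bases on chromosome 19. Its levels were -2.15, -2.11, -2.37 and -2.43 in βUCP2Tg and -3.32, -3.03, -2.98 and -3.12 in WT islets. The groups did not overlap, and the difference was 0.85 (SE 0.12, adjusted p = 0.0441 in limma).

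Among the 4 probes that fell, the fall was steepest for A_30_P01031837, on the reverse strand of a region of chromosome 7. It read -2.87, -3.25, -3.06 and -2.46 in βUCP2Tg and -1.77, -1.08, -1.33 and -1.36 in WT islets, a difference of -1.52 (SE 0.20, adjusted p = 0.0389 in limma), or 2.87-fold. Its complement on the forward strand, A_30_P01018981, read 2.70, 2.68, 2.53 and 2.25 in βUCP2Tg and 2.61, 1.91, 2.06 and 2.32 in WT islets. There the groups overlapped and the difference was 0.31 (SE 0.17, adjusted p = 0.296 in limma), so the same 58 bases were lower on one strand without a detected change on the other. The difference between the strands was not itself tested, since the pair was singled out for its values. The reverse-strand probe is also one that holds AATAAA.

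The other 3 fell by similar amounts. A_30_P01018791, on the reverse strand of chromosome 6, lay between -3.81 and -3.24 in βUCP2Tg and between -2.63 and -2.44 in WT islets (difference -0.90, SE 0.13, adjusted p = 0.0441 in limma), while a forward-strand probe of the same region, A_30_P01017865, showed a difference of -0.07. A_30_P01025044, on the reverse strand of chromosome 19, lay between -2.92 and -2.81 in βUCP2Tg and between -2.25 and -1.63 in WT islets (difference -0.92, SE 0.13, adjusted p = 0.0441 in limma). A_30_P01029264, on the forward strand of chromosome 13, lay between -4.77 and -4.41 in βUCP2Tg and between -3.99 and -3.55 in WT islets (difference -0.89, SE 0.14, adjusted p = 0.0463 in limma). This last probe lay in a locus crowded with lincRNA probes, 15 in all between 94182877 and 94203935 on chromosome 13. The 7 others measured there had differences from -0.18 to 0.39, and none of them was called.

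**Figure D2:**
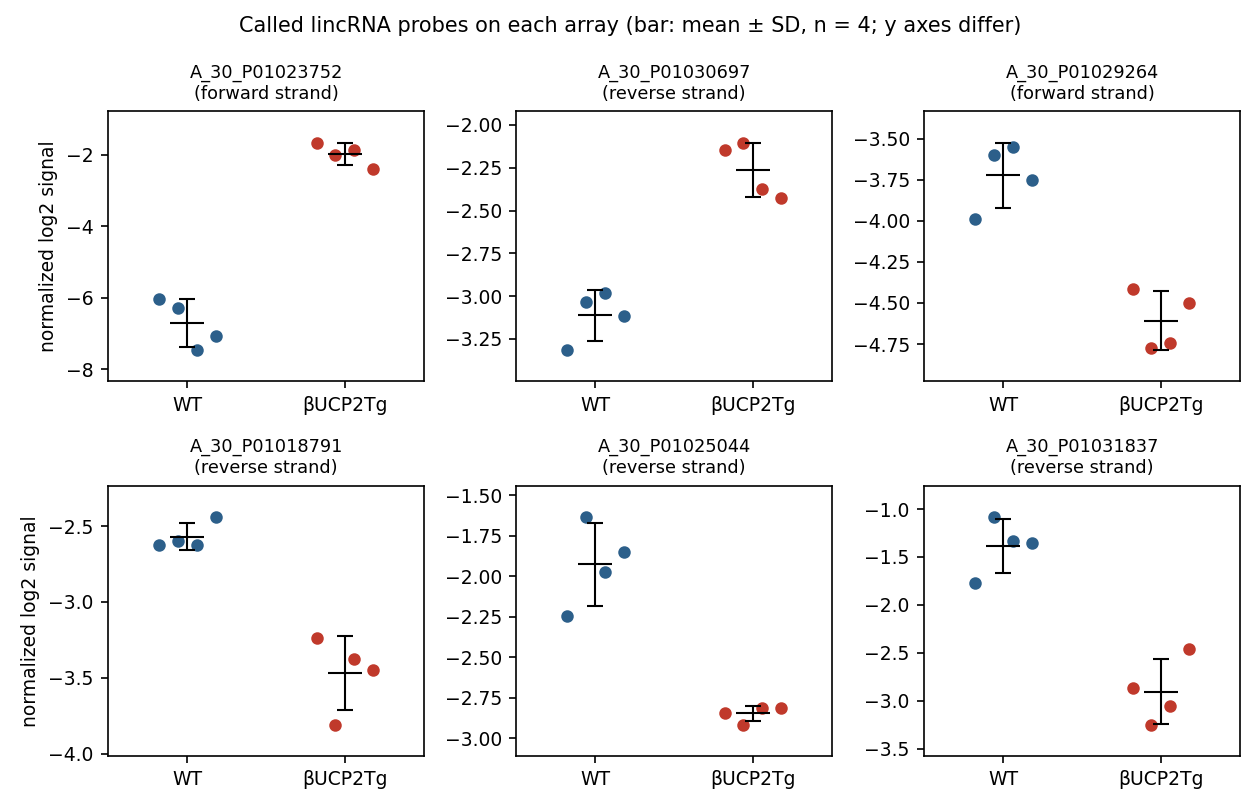
Normalized log2 signal (y axis, a different range in each panel) of the 6 called lincRNA probes on the 4 WT (blue) and 4 βUCP2Tg (red) arrays; bars are the mean ± SD (n = 4). In every panel the genotypes do not overlap; in the first, the WT values are not above background, and they lie between -7.46 and -6.02 against -2.40 to -1.66 in βUCP2Tg.

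For A_30_P01023752, which passed the detection limit only through the arrays where it is high, calls under other settings are no sign of stability. Without any one of the βUCP2Tg arrays it was on 3 arrays only and was not tested. Each of the 5 others lost the call in 9 or 10 of 17 alternative settings. All 5 lost it with no filter, with a filter at 1 array, with the replicate block and without any one of βUCP2Tg replicates 1 to 3 or WT replicates 2 to 4, with adjusted p from 0.0577 to 0.183 in limma, and also in the methods' t-test with adjustment. Under normexp their differences shrank to -0.80 for A_30_P01031837, which stayed called, and to -0.30 for A_30_P01018791, -0.52 for A_30_P01025044, -0.22 for A_30_P01029264 and 0.47 for A_30_P01030697, which were no longer called. None of the 5 changed direction in the 17 settings. Since their genotypes do not overlap, leaving out arrays, changing the filter or adding the replicate block could not turn it.

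The genotypes did not overlap for 193 lincRNA probes, of which 73 were higher and 120 lower in βUCP2Tg islets. These were 3.13% and 5.14% of the lincRNA probes, beside 5.53% and 6.53% of all probes tested. An unadjusted p under 0.05 in limma was found for 18.6% of the lincRNA probes and for 24.7% of all. Past the 6 called, the lowest adjusted p was 0.0523, shared by 8 lincRNA probes just outside the limit, and 0.0463 was the highest among those just inside.

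**Figure D3:**
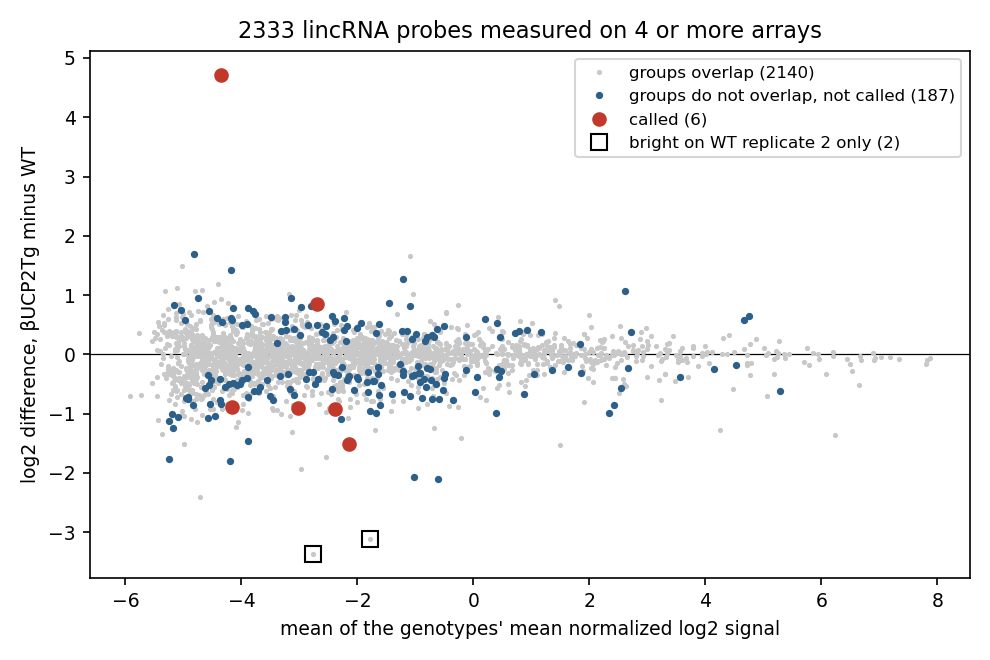
Log2 difference, βUCP2Tg minus WT (y axis), against the mean normalized log2 signal of the genotypes (x axis) for 2333 lincRNA probes, each a point. Red marks the 6 called probes, blue the 187 others whose genotypes do not overlap, grey the 2140 that overlap, and squares the 2 probes bright on WT replicate 2 only. Most points lie within 0.5 of 0.

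Among probes well above background on all 8 arrays with no overlap between genotypes, the 10 with the widest differences ran from -2.11 to 1.27, and of these only A_30_P01031837 was called. A_30_P01028855, on the forward strand of chr17:8718223-8949898, read -1.92, -2.49, -1.97 and -0.24 in βUCP2Tg and 0.01, 0.67, 0.60 and 0.51 in WT islets. βUCP2Tg replicate 4 was closest to the WT arrays, and the difference of -2.11 had an SE of 0.44 (adjusted p = 0.0726 in limma). A_30_P01027223, on the reverse strand of chr2:94046243-94070067, read -2.07, -2.84, -2.02 and -1.31 in βUCP2Tg and -0.48, -0.10, 0.72 and -0.08 in WT islets (difference -2.07, SE 0.35, adjusted p = 0.0523 in limma). Again replicate 4 was the βUCP2Tg array nearest to WT.

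In the other direction, A_30_P01027491 (chr5:122048289-122068947, reverse) read -0.42, -0.27, -0.47 and -1.16 in βUCP2Tg and -1.35, -2.23, -2.25 and -1.57 in WT islets. Its difference was 1.27 (SE 0.27, adjusted p = 0.0741 in limma). A_30_P01027115 (chr17:26911397-26917047, forward) lay between 2.76 and 3.44 in βUCP2Tg and between 1.93 and 2.46 in WT islets (difference 1.07, SE 0.18, adjusted p = 0.0523 in limma), and A_30_P01019429 (chr3:18521534-18522194, reverse) differed by 0.96 (adjusted p = 0.114). The 4 remaining probes, A_30_P01021825 on chromosome 4, A_30_P01018083 on chromosome 1, A_30_P01023400 on chromosome 14 and A_30_P01027500 on chromosome 8, had differences from -1.09 to -0.99 and adjusted p from 0.0523 to 0.101. None of these 9 was called.

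A clean on and off pattern was counted for lincRNA probes only, so its share over the whole array is not known here. In all, 4 lincRNA probes were well above background on all 4 arrays of one genotype and on none of the other. They were A_30_P01023752 in βUCP2Tg islets and 3 in WT islets. Those 3 were A_30_P01018110 (chr10:39386908-39390947, forward), A_30_P01022282 (chr6:39205913-39248468, forward) and A_30_P01031976 (chr2:83517176-83519228, reverse). They were at least 1.60-fold, 1.46-fold and 1.56-fold higher in WT islets, with adjusted p of 0.0763, 0.0523 and 0.0882 in limma. These p rest on βUCP2Tg values below background, and the 3 probes passed the detection limit solely through WT islets. All 3 were dim, with WT means between -4.70 and -4.54.

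Since many regions had several probes, both strands and repeated readings could be set side by side. Of 832 regions with probes on both strands, both were measured in 317, the reverse alone in 200, the forward alone in 167 and neither in 148. Measured probes of one region and one strand formed 164 pairs, and in 73.2% of them the genotype differences had the same sign, with a median gap of 0.17 between the differences. Measured probes on opposite strands of one region formed 382 pairs, of which 56.5% had the same sign, with a median gap of 0.28. Pearson's r between the differences was 0.53 over the same-strand pairs and 0.24 over the opposite-strand pairs, as a description, since the pairs share arrays and some share a probe. The strand here is the annotated one. Of 122 matches to RefSeq sequence on the region's own chromosome, 106 had the annotated strand.

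Some lincRNA probes also shared bases with each other. Sharing at least 25 bases in a row on the same strand, 29 measured pairs had a median gap of 0.07, and 27 of them had the same sign (r = 0.65). Among 56 measured pairs that were reverse complements over at least 25 bases, 28 had the same sign, the median gap was 0.29 and r was 0.05. The pairs differ in origin, since 28 of the 29 same-strand pairs joined probes of different regions, whereas 49 of the 56 complementary pairs lay within 1 region. The 7 complementary pairs of different regions had a median gap of 0.08, with gaps from 0.004 to 1.24. Strand and region thus cannot be told apart here. In 88 further complementary pairs 1 probe was measured and the other was not, so that signal on one strand often stood without signal on the other. A_30_P01031837 and A_30_P01018981 had the widest gap of all complementary pairs, 1.84.

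**Figure D4:**
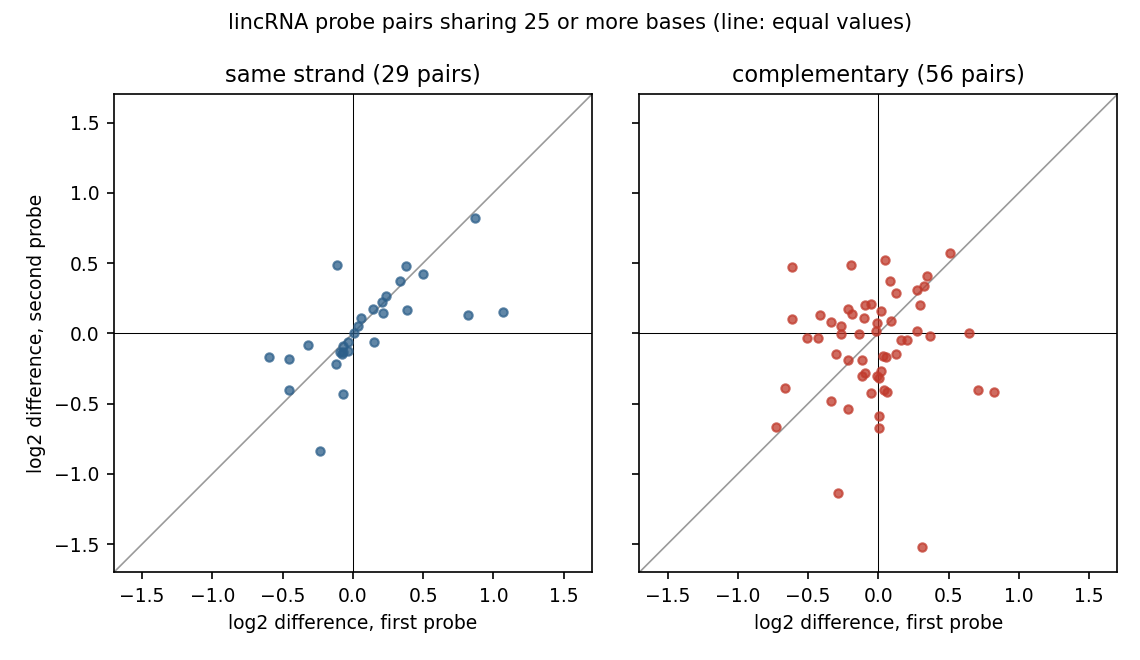
Log2 difference, βUCP2Tg minus WT, of the first probe (x axis) and second probe (y axis) of pairs of lincRNA probes sharing 25 or more bases in a row, each point a pair; the grey line marks equal values. The 29 same-strand pairs (left) lie near the line in most cases, and the 56 complementary pairs (right) scatter around 0 with r = 0.05.

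Among the lincRNA probes, 10 carried the name of a known transcript on the array, and 5 of these were measured. NEAT1, the scaffold of nuclear paraspeckles, was read by A_30_P01029720 at 5.77, 5.85, 5.74 and 6.29 in βUCP2Tg and 6.19, 6.44, 6.29 and 6.09 in WT islets. The groups overlapped and the difference was -0.34 (SE 0.15, adjusted p = 0.200 in limma). TUG1, a transcript up-regulated by taurine in the retina where it was first described, was read by A_30_P01033104 at 1.22, 1.42, 1.42 and 1.38 in βUCP2Tg and 1.07, 0.66, 1.02 and 1.20 in WT islets. Here the groups did not overlap, but the difference of 0.37 was not called (SE 0.13, adjusted p = 0.138 in limma), and the probe with the symbol Tug1, A_52_P62428, had the opposite sign, -0.22. KCNQ1ot1, the antisense transcript of an imprinted cluster, differed by -0.01 (A_30_P01026203, SE 0.11). NRON, which keeps the transcription factor NFAT out of the nucleus, differed by -0.27 (A_30_P01029993, SE 0.13), and PINC by 0.01 (A_30_P01021820, SE 0.15). The sign for KCNQ1ot1 turned under other scalings, to at most 0.0121, and under normexp background correction, to 0.0639. The probes named TSIX, XIST, H19, HOTAIR and lincP21 were well above background on no array.

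Probes with gene symbols for 42 named long non-coding RNAs were tested beside them. Limma called 0 of the 42, as did the methods' t-test with adjustment. Of the 42, 17 had an unadjusted p under 0.05 in limma, beside 24.7% of all probes tested. Their median difference was -0.33, 34 of the 42 differences were below 0, and the genotypes did not overlap for 12, all lower in βUCP2Tg islets, beside the 6.53% of all probes given above. No test of the list as a whole was made. Meg3, an imprinted transcript made from the maternal chromosome, was read by 5 probes with differences from -0.75 to -0.54 and adjusted p from 0.0741 to 0.178 in limma. Its brightest probe, A_55_P2736854, read 7.62, 7.44, 7.37 and 7.62 in βUCP2Tg and 8.11, 8.22, 8.00 and 7.87 in WT islets, without overlap. Rian and Mirg, further transcripts of the same imprinted cluster, had differences of -0.50 and -0.58 on their brightest probes (adjusted p = 0.320 and 0.109 in limma). Their dimmer probes differed by -0.97 and -0.67, each without overlap (adjusted p = 0.0861 and 0.0995 in limma). So the 3 transcripts of that cluster pointed the same way, and none passed the test.

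Of the same 42 genes, 15 were Snhg genes, small nucleolar RNA hosts that carry snoRNAs in their introns, and 0 of them were called. Their differences ran from -0.67 to 0.09 with a median of -0.36, 14 were below 0, and the lowest adjusted p was 0.0849 in limma. Of the 15, 7 were lower without overlap, beside 6.53% of all probes tested, and these 7 are among the 12 above. Gas5, a snoRNA host that accumulates in growth arrest, differed by -0.17 on its brighter probe and -0.19 on the other (adjusted p = 0.345 and 0.253 in limma). Neat1 probes with the gene symbol differed by -0.66 and -0.46 (adjusted p = 0.135 and 0.183), in the direction of the lincRNA probe of the same name. Kcnq1ot1 differed by -0.05 on its brightest probe, Miat by -0.71 with adjusted p = 0.354, and H19 was well above background on no array. For 38 genes whose products bind or degrade nuclear non-coding RNA (paraspeckle proteins, Polycomb subunits, the exosome), the median difference was -0.01. Of these, 0 were called by limma or by the methods' t-test with adjustment. An unadjusted p under 0.05 in limma was found for 5, beside 24.7% of all probes tested. Of 54 islet genes tested, 2 were called higher, on the first Ucp2 probe and a probe annotated to the related gene Ucp3. Called lower was 1, Gipr, the receptor of an incretin hormone, on 1 of its 2 probes. Over all probes tested, limma called 0.209% higher and 0.189% lower. The methods' t-test with adjustment called 2 of the 54 genes. The Ucp3 probe, A_66_P108247, read 7.87, 7.77, 7.55 and 7.21 in βUCP2Tg islets, in the order of the Ucp2 probe over those arrays. Whether it reads Ucp2 RNA was not tested.

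Sequence matches place some lincRNA probes more closely than their regions do. RefSeq windows of 250 bases before to 50 after gene starts (GRCm38.p6, used for sequence only) shared 25 or more bases with 58 measured lincRNA probes on the same chromosome. In 39 of these the probe read the strand opposite to a gene, and in 23 the strand of a gene, some probes counting in both. Examples on the strand of the gene were Gas5 (A_30_P01026655, difference -0.05) and the mitochondrial ribosomal protein gene Mrpl33 (A_30_P01029297, difference -0.08). On the opposite strand were Snhg3 (A_30_P01022304, -0.06), Snhg17 (A_30_P01021832, -0.11) and Gnptab, which encodes an enzyme of lysosomal targeting (A_30_P01027413, -0.18). The 58 differences ran from -1.03 to 0.71, with a lowest adjusted p of 0.136 in limma. None was called by limma or by the methods' t-test with adjustment, and 4 had an unadjusted p under 0.05 in limma. Only A_30_P01024378, opposite to Sgms2, a sphingomyelin synthase gene, had genotypes that did not overlap (difference -0.36). Of all probes tested, limma called 0.209% higher and 0.189% lower, and 24.7% had an unadjusted p under 0.05. Without overlap, 5.53% of all were higher and 6.53% lower.

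Of the measured probes, 2 held part of a microRNA hairpin on its own strand. A_30_P01031395, in a region of chromosome 15 (chr15:85412264-85549139, forward), shared 49 bases with the hairpin of let-7c-2, in capitals in the first line below. These include all 22 bases of mature let-7c-5p, shown in the second line as RNA with the seed, bases 2 to 8, in capitals.
A_30_P01031395: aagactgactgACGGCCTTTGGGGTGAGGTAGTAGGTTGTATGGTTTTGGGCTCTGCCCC
mmu-let-7c-5p: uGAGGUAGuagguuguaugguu
The let-7 family is known as a brake on growth programmes and is abundant in mature tissues, and an array of this kind reads the precursor or host transcript rather than the short mature form. The probe read -2.73, -2.98, -2.85 and -2.92 in βUCP2Tg and -2.70, -3.34, -3.16 and -3.53 in WT islets. The groups overlapped through WT replicate 1, and the difference was 0.31 (adjusted p = 0.298 in limma). The other, A_30_P01032185, shared 58 bases with the hairpin of Mir8110 and differed by 0.30 (adjusted p = 0.321).

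The lincRNA probes that varied most within a genotype did so mainly in the WT group. Over probes well above background on all 8 arrays, the median pooled within-genotype SD was 0.23 for lincRNA probes and 0.21 for the 29794 others. The 2 most variable probes were each bright on a single array. A_30_P01018051 (chr1:137689555-137692960, reverse) read 8.94 on WT replicate 2 and between -3.65 and -3.12 on the 7 other arrays, and the scanner software marked that bright spot as non-uniform. A_30_P01027727 (chr1:167219841-167220505, forward) read 7.77 on WT replicate 2 and between -4.82 and -3.54 elsewhere, and its bright spot carried no mark of this kind. Their fitted differences of -3.12 and -3.37 (adjusted p = 0.479 and 0.430 in limma) rest on that one array.

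The next 3, and the 3 after them, shared a pattern across arrays, low on WT replicates 1 and 4 and high on WT replicates 2 and 3. A_30_P01024661 (chr7:111526943-111545093, reverse) read -4.27, 0.31, 0.04 and -2.28 in WT and -1.37, -0.21, -0.33 and -0.21 in βUCP2Tg islets. A_30_P01023338 (chr1:175705225-175717250, reverse) read -4.53, -0.10, -0.07 and -1.88 in WT and -1.65, -1.41, -1.36 and -0.59 in βUCP2Tg islets. A_30_P01022005 (chr11:119254413-119296960, forward) read -2.31, 1.75, 1.37 and -0.63 in WT and -0.43, -0.41, -0.41 and 0.66 in βUCP2Tg islets. In each case the βUCP2Tg arrays fell inside the WT range, and the genotype differences of 1.02, 0.39 and -0.19 were far from the threshold (adjusted p = 0.530, 0.819 and 0.907 in limma).

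Among the genes most like them in pattern were interferon-induced genes, which cells switch on through STAT factors when interferon or viral RNA is sensed, such as Irf7 for A_30_P01024661 and Ifi44 for A_30_P01022005. Others are not known as such, and the closest genes to A_30_P01023338 and A_30_P01022005 were Ptgs2, a prostaglandin synthase gene, and Ankrd33b. Isg15, a ubiquitin-like modifier, read 1.83, 7.22, 6.72 and 4.46 in WT and 5.30, 6.05, 5.78 and 6.10 in βUCP2Tg islets. Of 24 such genes, listed after these values were seen, WT replicate 1 was the lowest array for 23, all but Oas1b, and 0 were called between genotypes by limma or by the methods' t-test with adjustment, with 0 at an unadjusted p under 0.05. For each lincRNA probe on all 8 arrays, deviations from the genotype means were set against the mean profile of the interferon genes. Pearson's r over the 8 arrays was above 0.95 for 25 of 1917 lincRNA probes, and for 674 of the 29794 other probes. The points share arrays and come from only 8 of them, so r is a description. These 25 probes lay in 20 regions, and 6 of them fell between 175654606 and 175717250 on chromosome 1, where 9 lincRNA probes were measured in all. Their ranges over the 8 arrays ran from 0.28 to 4.58, and their lowest adjusted p between genotypes was 0.139.

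**Figure D5:**
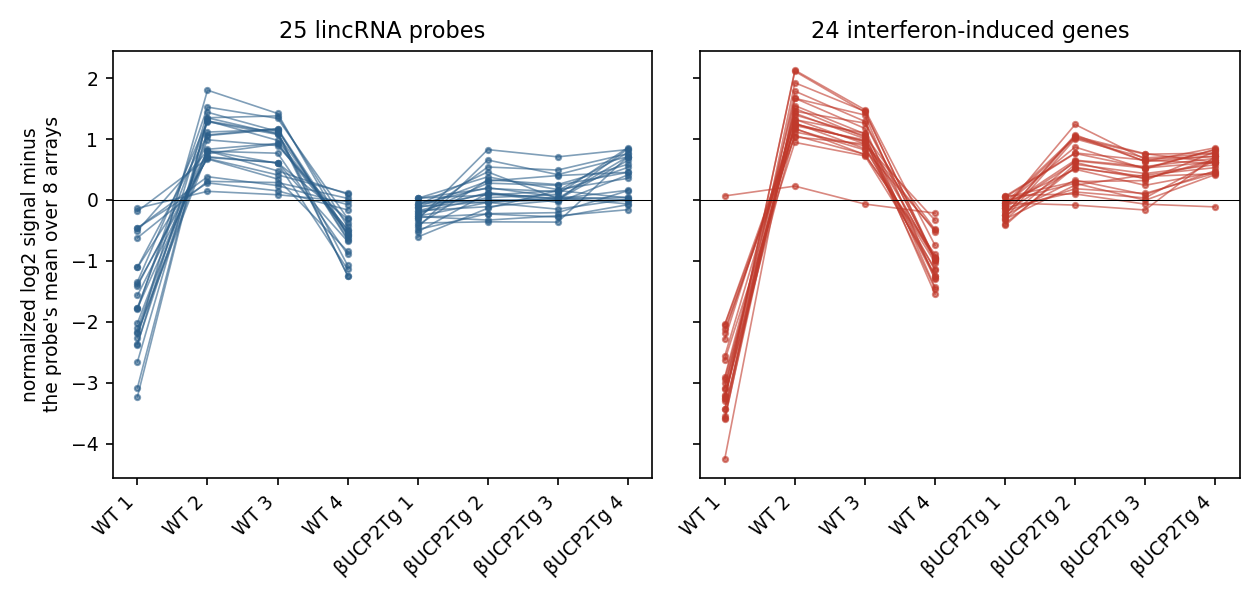
Normalized log2 signal minus the probe's mean over 8 arrays (y axis) on each array (x axis) for the 25 lincRNA probes with r above 0.95 (left) and 24 interferon-induced genes (right); lines join the values of a probe within a genotype, and the arrays have no order. The probes on the left were chosen for their likeness to the mean profile of the genes, in which WT replicate 1 is low.

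Other probes of the array also shared bases with lincRNA probes. On the same strand, 20 pairs of a measured lincRNA probe and another tested probe shared at least 25 bases, and in 18 the genotype differences had the same sign, with a median gap of 0.14. One of these pairs was A_30_P01024838 with a probe of Trim30d, a gene of an interferon-induced family, with differences of 0.43 and 1.02 and adjusted p of 0.703 and 0.488. As complements, 39 pairs were tested, of which 30 had the same sign, with a median gap of 0.08. These complements were thus no further apart than the same-strand pairs, unlike the complementary lincRNA pairs within 1 region. Some probes stand in several of these pairs, so the counts are not of independent readings.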

How the data were processed

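RNA was labelled and hybridised to Agilent one-colour mouse arrays (4 βUCP2Tg, 4 WT). The authors deposited scanner intensity files, from Feature Extraction (version 10.7.3.1 in the headers, 9.1 in the submitters' processing notes), and a GeneSpring table of normalized log2 values, which equalled the log2 processed signal minus each array's 75th percentile. The log2 values were used here, and the intensity files gave detection flags. That table also holds the authors' fold changes and p-values, which were not used. The lincRNA probes were those with control type 0 and names starting with A_30_P. A probe was analysed when at least 50% of its spots were well above background on 4 or more arrays. All 35363 such probes were fitted with limma 3.58.1 in R 4.3.3 (lmFit, eBayes) with Benjamini-Hochberg adjustment, after tests on simulated data. P-values measure the spread between these arrays, which may be technical. Array number limits the precision. Each array gave 59305 spots that were not controls, none saturated.

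Members, gene lists and rules were chosen with earlier results of these data known. Named probes were every called one, the 10 with the widest difference without overlap on all 8 arrays, those on all arrays of one genotype and none of the other, the 5 with the widest within-genotype SD, probes named on the array, the listed named transcripts, Ucp2 and markers. The rules for neighbours of islet genes and nearest genes by coordinates were not applied, because the table holds no gene coordinates and the reference at hand is of another build. The next 3 variable probes, the interferon genes, shared-sequence pairs and other probes of called regions were chosen after values were seen. Alternatives were other scalings, normexp with offset 50, other filters, the methods' t-test, an intensity trend, other fold limits, a replicate block and leaving out arrays. The replicate numbers came from titles, and the same-number correlations of deviations were 0.48, -0.06, -0.02 and -0.29, so the numbers were not taken as pairs. Matplotlib 3.10.9 drew the figures.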

Additional observations from a re-analysis of the deposited data

Results flagged for a closer look

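For 8 of the 66 sets of 4 replicate arrays, a single array stood away from the other 3 by Dixon's criterion. Chance flags about 1 set in 20, but 4 of the 8 belong to probes chosen for their spread, to which that rate does not apply. WT replicate 2 read 8.94 for A_30_P01018051, 7.77 for A_30_P01027727, -4.45 for A_30_P01022282 and -3.16 for the NRON probe A_30_P01029993, each above the other WT arrays. WT replicate 4 read -2.44 for A_30_P01018791, which was called lower in βUCP2Tg islets, and WT replicate 1 read 2.46 for A_30_P01027115, in both cases the highest WT value. Among βUCP2Tg arrays, replicate 4 read 0.66 for A_30_P01022005 and replicate 1 read -1.37 for A_30_P01024661, which are among the probes that followed the interferon genes.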

How the results depend on the processing

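Against 2 lincRNA probes called higher and 4 lower, quantile normalization gave 4 higher, normexp 5 and 7, the filter at all 8 arrays 4 and 10, the intensity trend 6 and 8, and a limit of 2-fold 1 and 1. No filter, a filter at 1 array, the replicate block and the methods' t-test with adjustment each gave 1 and 0, and that test without adjustment 39 and 103. Leaving out WT replicate 1 and βUCP2Tg replicate 4 together gave 93 and 144 called, and 316 higher and 351 lower without overlap (14.4% and 15.95%, beside 22.0% and 22.3% of all probes). Leaving out 1 array at a time, calls ran from 0 to 71 higher and from 0 to 78 lower, non-overlapping probes from 83 to 220 and from 129 to 278 (fewer arrays overlap less), and the median difference from -0.06 to 0.00. The highest counts were without WT replicate 1, except for the 278, without βUCP2Tg replicate 4. Without βUCP2Tg replicates 1, 2 or 3 limma called 0. For the 6 called probes normexp brought every difference nearer to 0, as given beside them. For the called probes other than A_30_P01023752 no alternative turned the direction. Leaving out arrays, changing the filter or adding the replicate block could not turn it. The KCNQ1ot1 difference, -0.01, turned to 0.0121 with quantile normalization, 0.00785 with scaling to the median of probes on all arrays, 0.0639 with normexp and 0.0609 without both arrays, and ran from -0.0605 to 0.0470 leaving out 1 array. The PINC difference, 0.01, ran from -0.118 to 0.0993 leaving out 1 array. Causes were not tested. Probes near background allow only bounds.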
